A study of Homo sapiens with 66 samples.

Results

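The genes described here are 36 of the 57992 gene identifiers counted in the series, namely genes of sterol and fatty acid synthesis, of its feedback control and of the response to the liver X receptor (LXR). They were taken by symbol from a list that was drawn up because INSIG1 was lower after etoposide in most cell lines and higher in F-36P. The fold changes of INSIG1 are therefore given as a description, with no test, and the other 35 genes were listed with results of these data already known. By role, 8 genes code for steps of the mevalonate pathway, 10 for steps after squalene, 2 for feedback and sterol transport, 4 for regulators, 8 for fatty acid synthesis and 4 for the LXR response.

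RNA was sequenced from 11 established human acute myeloid leukaemia (AML) cell lines, namely NB-4, MONO-MAC-6, THP-1, NOMO-1, OCI-AML3, MOLM-13, HL-60, KASUMI-1, MV-4-11, F-36P and OCI-AML2, whose names the sample labels write without hyphens. Each cell line was given medium alone (untreated) or etoposide, a topoisomerase II poison, for 24 h, and 3 libraries per group make 66 libraries, each from 3 pooled wells. Etoposide was given at the IC50 of each cell line, so that concentration and cell line cannot be told apart. Media also differed between cell lines, with GM-CSF for F-36P, so that medium and cell line cannot be told apart either, and the labels name no engineered allele. The study discarded the etoposide libraries of OCI-AML2 after a check of the raw reads, and that cell line is described apart from the other 10.

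Cells make cholesterol from acetyl-CoA through mevalonate, squalene and lanosterol. The transcription factor SREBP-2, coded by SREBF2, switches on the enzymes of this route, and SREBP-1, coded by SREBF1, acts more on fatty acid synthesis. Both are held in the endoplasmic reticulum by the escort protein SCAP and the anchors INSIG1 and INSIG2 while sterol is abundant, and they are released to the Golgi and cleaved when sterol is scarce. INSIG1 is itself a target of SREBP, which closes a feedback loop. LXR senses oxysterols and switches on cholesterol export through ABCA1 and ABCG1, the degradation of lipoprotein receptors through MYLIP, and SREBF1 itself. Leukaemia cells that divide need new membrane, and both routes feed it.

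Up to 250 bases before the RefSeq start, as far as they lie outside the gene as annotated, are shown for INSIG1, for HMGCS1 and MSMO1, whose change in F-36P differed most from the other cell lines, and for SREBF2, the gene of their regulator. They are written 5′ to 3′ on the strand of the gene, from RefSeq on GRCh38.p14, with matches to CCAAT, the box bound by NF-Y, and to the sterol regulatory element, as TCACNCCAC or its 10-base form, in capitals on either strand.
INSIG1 (chr7:155297628-155297775, plus strand): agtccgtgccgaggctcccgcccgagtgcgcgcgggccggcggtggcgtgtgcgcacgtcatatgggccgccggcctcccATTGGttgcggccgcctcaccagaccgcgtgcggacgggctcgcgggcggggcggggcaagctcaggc
HMGCS1 (chr5:43313513-43313662, minus strand): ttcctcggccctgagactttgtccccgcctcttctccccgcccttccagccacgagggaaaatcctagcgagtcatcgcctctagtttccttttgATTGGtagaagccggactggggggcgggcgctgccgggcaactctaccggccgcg
MSMO1 (chr4:165327419-165327666, plus strand): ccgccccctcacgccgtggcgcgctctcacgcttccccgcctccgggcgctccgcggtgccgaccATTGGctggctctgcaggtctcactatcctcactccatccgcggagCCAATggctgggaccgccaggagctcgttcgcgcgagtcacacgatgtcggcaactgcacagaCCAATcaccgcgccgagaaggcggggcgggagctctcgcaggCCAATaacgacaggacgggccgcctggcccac
SREBF2 (chr22:41832855-41833104, plus strand): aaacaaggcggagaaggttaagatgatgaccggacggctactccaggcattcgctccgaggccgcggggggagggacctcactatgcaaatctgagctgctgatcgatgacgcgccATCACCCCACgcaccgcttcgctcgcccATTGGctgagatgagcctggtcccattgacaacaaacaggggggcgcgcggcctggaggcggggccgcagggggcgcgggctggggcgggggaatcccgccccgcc

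RefSeq promoter windows of 300 bases, from 250 before to 50 after a start, were at hand for 31 of the 36 genes, as 46 windows. CCAAT, on either strand, was in 26 of these windows, or 56.5%, beside 34.6% of all 35116 windows. For the steps after squalene it was in 9 of 11 windows, with 3 copies on the coding strand and 1 on the other before MSMO1. The element TCACNCCAC was in 1 window, that of SREBF2, where it lies inside a match to the 10-base form at bases -134 to -125 from the start, beside 1.13% of all windows for the shorter form and 0.0456% for the longer. The LXR element, a direct repeat with a gap of 4 bases, was in none of the 46 windows and in 0.0541% of all. A match describes letters only, and the absence of one says nothing about binding of a factor.

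Reads on genes numbered 17997404 to 24101670 per library, with a median of 20241014. Levels are given as CPM, the reads of a gene per 1000000 reads on genes, scaled by TMM within a cell line unless stated. They are shares of a library, so that fewer cells of a type and less RNA per cell cannot be told apart. Of the myeloid markers, SPI1 and CD33 were present untreated in all 11 cell lines. F-36P held the erythroid markers GATA1 at 253, KLF1 at 231 and EPOR at 196 CPM. Of its 6 myeloid markers, MPO was at 0.977 and CEBPA at 0.552 CPM. PTPRC was at 352, LYZ at 167, CD33 at 141 and SPI1 at 137 CPM. After etoposide in F-36P the log2 fold change was -0.56 for GATA1, -1.35 for KLF1 and -0.90 for EPOR, and 1 of the 3 was called. The summed level of these 3 was 618 to 775 CPM untreated and 341 to 417 CPM after etoposide. Of 6 T cell, B cell, epithelial and fibroblast markers, 4 were called induced there (CD3D, EPCAM, COL1A1 and COL1A2), beside 24.3% of all genes tested. Their summed level over the 6 was 1.92 to 3.31 CPM and then 14.4 to 16.8 CPM, with MS4A1 at 0 untreated. EPCAM, COL1A1 and COL1A2 had untreated means of only 0.299, 0.0733 and 0.263 CPM. These 3 passed the filter on low counts through their etoposide libraries, so that nothing is read from their calls. The 6 myeloid markers summed to 675 to 1039.9 and then 784 to 812 CPM, with CEBPA called induced and PTPRC repressed. Marker sums also changed in other cell lines: the myeloid sum in NB-4 was 15639.8 to 18381 CPM untreated and 4616 to 5178 CPM after etoposide. In MOLM-13 it was 2332 to 3167 CPM untreated and 5995 to 6957 CPM after etoposide, and in MONO-MAC-6 the sum of the T cell, B cell, epithelial and fibroblast markers was 1.17 to 1.81 CPM untreated and 8.30 to 10.8 CPM after etoposide. Untreated NOMO-1 had CD3D at 156 CPM and KASUMI-1 had EPCAM at 81.9 CPM. The part of these markers in the results below was not tested. In HL-60, etoposide replicate 3 stood apart from the other etoposide libraries for many of the genes described, and its counts, sterol enzymes and INSIG1 are given with and without it.

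INSIG1, the gene that chose the list, codes for a protein that retains the SCAP-SREBP complex in the endoplasmic reticulum (chromosome 7, 155297776 to 155310235, GRCh38, ENSG00000186480.12). In F-36P its level was 124, 116 and 118 CPM untreated and 239, 204 and 307 CPM after etoposide. In NB-4, the cell line with the lowest fold change, the libraries went from 564, 525 and 708 to 43.2, 41.8 and 56.0 CPM. Every etoposide library of F-36P was thus above its untreated ones, and every one of NB-4 far below. Levels of INSIG1 in CPM went from 583, 612 and 596 to 132, 132 and 123 in MONO-MAC-6 and from 247, 332 and 274 to 79.9, 79.6 and 79.3 in THP-1. They went from 115, 135 and 105 to 41.4, 35 and 41.3 in NOMO-1 and from 358, 412 and 519 to 146, 166 and 177 in MOLM-13. These etoposide libraries all lay under the lowest untreated library of the same cell line. The level also went from 169, 198 and 184 to 74.5, 67.5 and 71.2 in OCI-AML3 and from 541, 432 and 500.2 to 254, 256 and 129 in HL-60, and HL-60 replicate 3 was the lowest of its group. Finally, INSIG1 went from 266, 266 and 238 to 121, 106 and 114 in MV-4-11 and from 144, 151 and 160.5 to 63.3, 69.5 and 69.7 in KASUMI-1. The groups overlapped in none of these 10 cell lines. The log2 fold change was 1.07 in F-36P and lay between -3.67 in NB-4 and -1.17 in the other 9, -2.21 in MONO-MAC-6 and -1.20 in HL-60 among them, the last -0.93 without etoposide replicate 3.

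**Figure D1:**
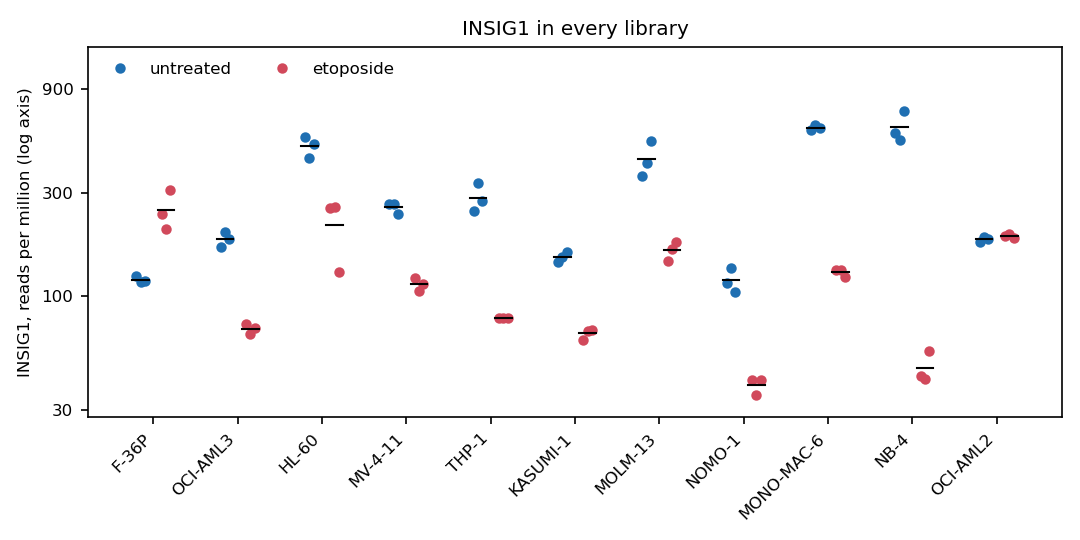
INSIG1 in CPM (log axis) in every library of 11 cell lines, untreated in blue and after etoposide in red, with a black bar at the mean of 3 libraries. The red points lie above the blue ones in F-36P, below them in 9 cell lines and among them in OCI-AML2.

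The comparison within each cell line asked which of the other 35 genes changed with etoposide, and a gene was called where its FDR was below 0.05 and its level changed more than 2-fold. Over 10 cell lines, 75 of 337 tests called a gene repressed and 20 called one induced, and 12 of the 20 inductions were in F-36P. In F-36P, 1 of 35 genes was repressed and 12 were induced, beside 6.67% and 24.3% of all genes tested there. At the FDR alone, 8 genes were lower and 24 higher in F-36P, beside 25% and 35% of all genes. By contrast, 17 of 33 tested genes were repressed and 1 induced in NB-4, beside 4.82% and 13.2% of all genes tested. Next, 12 of 34 tested genes were repressed and 2 induced in KASUMI-1, beside 6.52% and 14.6% of all genes tested, and 12 of 33 tested genes were repressed and 1 induced in MONO-MAC-6, beside 4.47% and 8.53% of all genes tested. Fewer were called elsewhere: 9 of 34 tested genes were repressed and 0 induced in NOMO-1, beside 4.43% and 8.34% of all genes tested. Likewise, 9 of 34 tested genes were repressed and 1 induced in THP-1, beside 3.46% and 6.38% of all genes tested. In MOLM-13, 8 of 34 were repressed and 1 was induced, beside 3.37% and 8.59% of all genes. In MV-4-11, 5 of 33 were repressed and 1 was induced, beside 2.63% and 12.5%. OCI-AML3 had 1 of 33 genes repressed and 1 induced, beside 1.36% and 7.18%. HL-60 had 1 of 34 repressed and 0 induced, beside 1.24% and 5.34%, and 0 repressed without etoposide replicate 3 but 6 without etoposide replicate 2. The gene called in HL-60 was CYP51A1, which passed the filter on low counts there only through its untreated libraries. With 1 library left out, the repressed genes of OCI-AML3 numbered 1 to 2, those of MOLM-13 5 to 9 and those of F-36P 1 to 2. Because the list was chosen on this contrast, nothing is read from the shares of all genes beside its counts. The labels do not say that the 3 libraries of a group came from separate cultures. The study states in general that its experiments had 3 biological replicates, without naming these libraries. P-values measure only the spread between these libraries, and how separate their cultures were is not given.

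**Figure D2:**
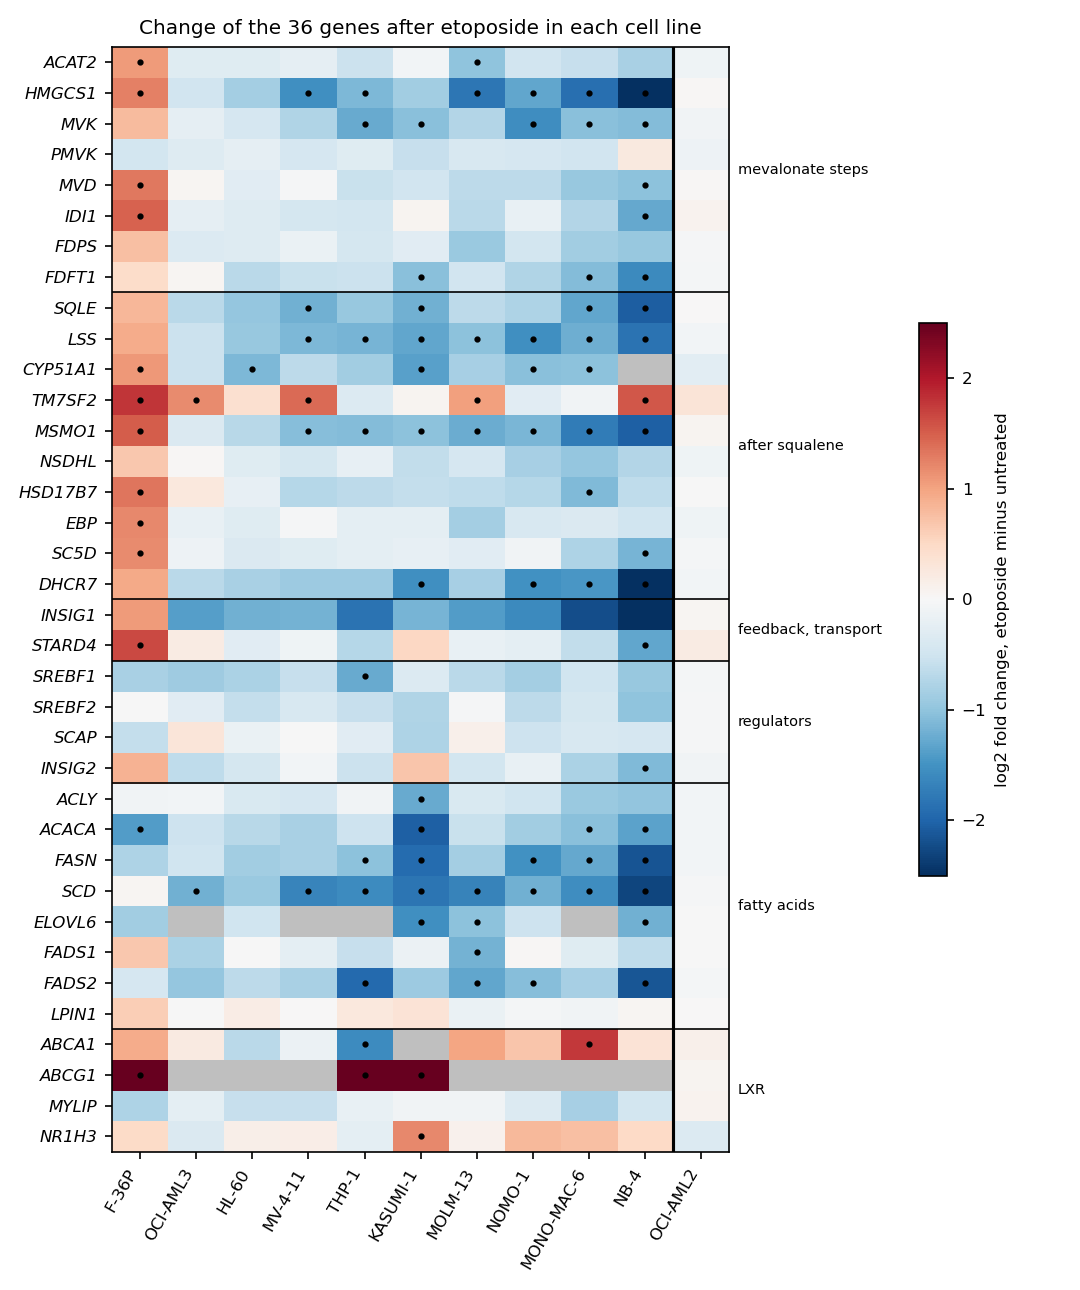
Log2 fold change of the 36 genes (rows, by role) in 11 cell lines (columns, OCI-AML2 apart at the right), with colours ending at 2.5 in either direction, grey where a gene was not tested and a black point where it was called. INSIG1 carries no points because it chose the list. The F-36P column is red through the sterol enzymes except PMVK (-0.45), where most other columns are blue.

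The 18 sterol enzymes had a median log2 fold change above 0 in F-36P and below 0 in the other 9 cell lines. The median was 1.08 in F-36P, where 17 of 18 values were above 0 and 10 were called induced. Beside them, 8644 of all 15911 genes tested there were above 0 and 24.3% were called induced. The median of the sterol enzymes was -1.08 in NB-4, -1.0 in MONO-MAC-6, -0.73 in NOMO-1 and -0.71 in MOLM-13. The medians of the other 5 cell lines lay between -0.60 in KASUMI-1 and -0.27 in OCI-AML3, with -0.34 in HL-60, or -0.25 without its etoposide replicate 3 and -0.52 without its etoposide replicate 2. The median over all genes tested lay between -0.034 and 0.086 in these 10 cell lines. Scaling by library size alone moved that median to 0.34 in F-36P and to 0.21 in NB-4, and changes are given relative to TMM scaling.

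Of the mevalonate genes, HMGCS1, the synthase that makes the substrate of the pathway's committed step, was repressed in 6 cell lines and induced in F-36P. In CPM, HMGCS1 went from 91.4, 135 and 181 to 339, 299 and 331 in F-36P, from 554, 638 and 927 to 68.5, 62.8 and 70.6 in NB-4 and from 536, 516 and 533 to 149, 132 and 149 in MONO-MAC-6. It went from 193, 242 and 345 to 79.6, 62.2 and 80.2 in MOLM-13, from 353, 327 and 244 to 111, 108 and 101 in MV-4-11 and from 1204, 1111 and 913 to 386, 443 and 491 in NOMO-1. In the rest the level went from 228, 263 and 241 to 117, 95.4 and 122 in THP-1 and from 860.1, 609 and 766 to 512, 479 and 249 in HL-60, and from 129, 149.7 and 118 to 73.8, 68.7 and 74.4 in KASUMI-1 and from 116, 99.8 and 138 to 93.4, 102 and 59.7 in OCI-AML3. Only in OCI-AML3 did the groups of HMGCS1 overlap, and F-36P was the one cell line of the 10 with its etoposide libraries on top. Its log2 fold change was 1.25 in F-36P (SE 0.208, edgeR FDR = 0.000489) and -3.39 in NB-4 (SE 0.155, FDR = 4.23e-10). Without untreated replicate 1, the lowest untreated library, the value in F-36P was 0.99, and in THP-1 it was -0.99 without etoposide replicate 2, both just under the fold limit.

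Of the steps that follow, MVK, mevalonate kinase, was repressed in 5 cell lines, with the lowest log2 fold change of -1.55 in NOMO-1, and had 0.78 in F-36P, which passed the FDR but not the fold limit. PMVK, phosphomevalonate kinase, was called in no cell line, and its log2 fold change of -0.45 in F-36P was on the side of the other lines while its 0.25 in NB-4 was the one value above 0 (FDR = 0.175). MVD, the decarboxylase that makes isopentenyl diphosphate, was induced in F-36P, from 99.3 ± 12.8 to 248 ± 57.5 CPM (SD, n = 3), and repressed in NB-4, from 57.5 ± 11.2 to 28.1 ± 5.12. IDI1, the isomerase, went the same ways in these cell lines, with log2 fold changes of 1.47 and -1.27. ACAT2, an acetyl-CoA acetyltransferase, was induced in F-36P, from 222 ± 49.0 to 463 ± 18.2 CPM, and repressed in MOLM-13 with a log2 fold change of -1.01, which fell short of the limit in 2 of 6 settings with 1 library left out. FDFT1, squalene synthase, was repressed in KASUMI-1, MONO-MAC-6 and NB-4, with log2 fold changes of -1.04, -1.08 and -1.59. FDPS, farnesyl diphosphate synthase, was called in none, between -0.94 in NB-4 and 0.75 in F-36P, and its reads may be shared with near-identical pseudogene copies.

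Past squalene, LSS, the cyclase that makes lanosterol, was repressed in 7 cell lines. In CPM, LSS went from 58.9, 58.3 and 56.9 to 16.0, 16.6 and 15.8 in NB-4, from 55.9, 55.9 and 49.6 to 19.6, 17.1 and 18.9 in NOMO-1 and from 49.9, 51.1 and 53.0 to 20.2, 21.5 and 20.9 in KASUMI-1. It went from 113, 139 and 131 to 51.1, 57.7 and 55.1 in MONO-MAC-6, from 35.4, 34.9 and 32.1 to 13.8, 17.1 and 15.9 in MV-4-11 and from 21.7, 24.0 and 24.7 to 8.76, 13.6 and 9.26 in THP-1. The remaining cell lines went from 38.4, 43.7 and 48.8 to 17.9, 25.4 and 21.0 in MOLM-13 and from 39.4, 47.9 and 40.1 to 26.5, 30.6 and 30.5 in OCI-AML3, and from 111, 94.1 and 105 to 56.7, 72.5 and 31.5 in HL-60 and from 47.7, 41.5 and 42.8 to 66.2, 72.0 and 114 in F-36P. LSS groups overlapped in none of the 10, and F-36P was again the one cell line with higher etoposide libraries, replicate 3 well above the other 2. Its log2 fold change of 0.94 there (FDR = 0.00214) was under the fold limit, and 1.08 without etoposide replicate 1. The repression in MOLM-13, at -1.02, was under the limit in 3 of 6 settings with 1 library left out, at -0.89 without etoposide replicate 1.

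MSMO1, a sterol C4-demethylating oxidase, was repressed in the same 7 cell lines as LSS and induced in F-36P. MSMO1 in CPM went from 52.4, 65.5 and 70.6 to 179, 159 and 201 in F-36P, from 39.2, 40.8 and 58.0 to 11, 10.3 and 12.3 in NB-4 and from 167, 161 and 161 to 50.8, 46.7 and 47.5 in MONO-MAC-6. It went from 51.9, 62.0 and 81.4 to 29.3, 27.6 and 25.5 in MOLM-13, from 59.0, 53.6 and 52.3 to 23.7, 22.4 and 28.3 in NOMO-1 and from 54.2, 52.7 and 49.5 to 27.2, 21.5 and 25.3 in THP-1. The level went from 36.3, 35.9 and 34.2 to 18.5, 16.9 and 15.8 in MV-4-11 and from 30.3, 31.1 and 32.9 to 15.5, 14.8 and 15.8 in KASUMI-1, and from 34.2, 32.9 and 34.5 to 28.9, 26.7 and 23.2 in OCI-AML3 and from 91.0, 74.7 and 84.3 to 62.4, 64.2 and 29.1 in HL-60. In all 10 cell lines the groups of MSMO1 were apart, with the etoposide libraries above in F-36P and below in the other 9. MSMO1 had a log2 fold change of 1.51 in F-36P (SE 0.145, FDR = 1.79e-05) and -2.03 in NB-4 (SE 0.148, FDR = 2.79e-08). The calls in KASUMI-1 and THP-1 were each lost without 1 library, at -0.99 without untreated replicate 3 and -0.95 without etoposide replicate 2.

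TM7SF2, a sterol C14 reductase, was called induced in 5 cell lines and repressed in none. In CPM, TM7SF2 went from 13.0, 11.9 and 11 to 35.8, 40.5 and 47.9 in F-36P, from 21.4, 32.3 and 30.6 to 77.7, 85.9 and 83.1 in NB-4 and from 10.4, 10.6 and 11.3 to 24.2, 32.1 and 29.8 in MV-4-11. It went from 7.57, 9.38 and 9.37 to 19.2, 20.5 and 20.4 in OCI-AML3 and from 16.6, 18.2 and 19.4 to 34.8, 36.6 and 38.8 in MOLM-13. In these 5 cell lines each etoposide library was above each untreated one. In the others it went from 24.5, 23.3 and 22.5 to 31.5, 38.4 and 23.5 in HL-60 and from 43.4, 52.1 and 53.1 to 46.2, 60.4 and 49.5 in KASUMI-1, and from 37.5, 48.2 and 46.3 to 41.3, 43.9 and 39.5 in MONO-MAC-6, from 18.5, 22.3 and 18.0 to 16.6, 14.1 and 17.6 in NOMO-1 and from 18.0, 21.8 and 20.8 to 13.4, 20.7 and 13.8 in THP-1. There the groups overlapped except in NOMO-1, where the etoposide libraries were the lower. In log2 terms the change was 1.79 in F-36P and 1.55 in NB-4 (FDR = 8.4e-06 and 1.05e-07), a cell line whose median over the sterol enzymes was -1.08. The call in MOLM-13 was lost without untreated replicate 1, at 0.96, and without etoposide replicate 3, at 0.99. TM7SF2 overlaps 1 gene on its own strand, so that reads in the overlap are not counted for it.

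Of the other steps after squalene, DHCR7, the last reductase of the route, was repressed in 4 cell lines, from 289 ± 40.1 to 46.7 ± 6.11 CPM in NB-4, and had a log2 fold change of 0.96 in F-36P. SQLE, squalene epoxidase, was repressed in 4 as well, from 136 ± 10.3 to 32.6 ± 3.01 CPM in NB-4, with 0.82 on the log2 scale in F-36P. HSD17B7, a sterol ketoreductase whose reads may be shared with a close pseudogene copy, was induced in F-36P at 1.34 and repressed in MONO-MAC-6 at -1.11. EBP, the sterol isomerase, and SC5D, the desaturase, were induced in F-36P with log2 fold changes of 1.20 and 1.19. SC5D was repressed in NB-4 at -1.16, and EBP nowhere. NSDHL, a sterol dehydrogenase, was called in no cell line, between -0.97 in MONO-MAC-6 and 0.68 in F-36P. CYP51A1, lanosterol demethylase, had a median of only 2.66 CPM untreated and no reads in NB-4, and 2 genes overlap it on its own strand. With that limit it was repressed in 4 cell lines and induced in F-36P at 1.09, and calls of 4 of these 5 were lost in 1 or more settings without 1 library.

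STARD4, a carrier of cholesterol between membranes, was induced in F-36P, from 82.2 ± 15.4 to 259 ± 41.5 CPM, and repressed in NB-4, from 69.7 ± 13.9 to 28.3 ± 3.31 CPM. Of 40 tests of the 4 regulators, 2 were called, beside 6.58% (HL-60) to 30.9% (F-36P) of all genes tested in a cell line. SREBF1 had log2 fold changes below 0 in all 10 cell lines, F-36P included, under each of the 3 scalings. In CPM, SREBF1 went from 95.7, 87.6 and 80.7 to 45.2, 52.0 and 52.7 in F-36P, from 71.7, 76.7 and 81.9 to 28.4, 45.3 and 23.1 in THP-1 and from 161, 155 and 131 to 61.3, 84.4 and 85.1 in NB-4. Its groups overlapped in none of the 10 cell lines, and the etoposide libraries were the lower in each. SREBF1 had a log2 fold change of -0.82 in F-36P (FDR = 0.000252), and -1.25 in THP-1 was the one call. SREBF2 lay between -1.0 in NB-4 and -0.019 in F-36P, and its value in F-36P was 0.23 with library size alone. SCAP, the escort protein, was called nowhere, with -0.59 in F-36P. INSIG2, the second anchor, was repressed in NB-4 at -1.11, a call lost in 1 setting without 1 library, and its 0.86 in F-36P and 0.69 in KASUMI-1 passed the FDR but not the fold limit.

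The 8 fatty acid genes had a median log2 fold change below 0 in all 10 cell lines, F-36P included. The median was -0.26 in F-36P, where none was induced and ACACA was repressed, beside 24.3% and 6.67% of all genes. It was -0.40 without etoposide replicate 3 and -0.013 when scaled by library size alone. It was -1.40 in KASUMI-1, -1.27 in NB-4, -0.94 in MOLM-13 and -0.93 in MONO-MAC-6. The other 5 medians lay between -0.81 in MV-4-11 and -0.52 in OCI-AML3.

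SCD, the desaturase that makes oleate, was repressed in the most cell lines among the 35 genes other than INSIG1, 8 of 10. In CPM, SCD went from 1921, 1818 and 2094 to 391, 382 and 419 in NB-4, from 939, 940.1 and 982 to 285, 248 and 273 in KASUMI-1 and from 1237, 1389 and 1581 to 312, 492 and 526 in MOLM-13. It went from 916, 904 and 866 to 289, 281 and 287 in MV-4-11, from 2133, 2274 and 2301 to 760.0, 769 and 753 in MONO-MAC-6 and from 365, 429.7 and 391 to 123, 139.7 and 138 in THP-1. The level went from 1096, 1309 and 1014 to 527, 452 and 515 in NOMO-1 and from 1047, 1161 and 1063 to 477, 456 and 481 in OCI-AML3, and from 2556, 2189.9 and 2437 to 1436, 1502 and 846 in HL-60 and from 1330.1, 1102 and 1247 to 1189.6, 1046 and 1546 in F-36P. The SCD groups overlapped only in F-36P, and HL-60 etoposide replicate 3 was far below the other 2. Its log2 fold change was -2.29 in NB-4 (SE 0.0878, FDR = 1.53e-10), 0.039 in F-36P (FDR = 0.834) and -0.92 in HL-60, and no call of the 8 was lost when 1 library was left out.

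ACACA, the carboxylase that makes malonyl-CoA, had etoposide libraries below the untreated ones in all 10 cell lines and was called repressed in 4, with F-36P among them. In CPM, ACACA went from 46.1, 54.2 and 64.9 to 21.3, 18.1 and 23.3 in F-36P, from 106, 95.1 and 84.3 to 27.3, 18.7 and 23.6 in KASUMI-1 and from 104, 91.7 and 103 to 41.1, 39.9 and 37.0 in NB-4. It went from 86.8, 84.0 and 83.8 to 41.3, 42.7 and 39.1 in MONO-MAC-6, from 77.6, 66.3 and 62.5 to 39.2, 38.8 and 39.5 in MV-4-11 and from 70.5, 70.6 and 61.3 to 36.9, 36.5 and 37.1 in NOMO-1. The level went from 103, 79.7 and 89.0 to 58.8, 64.4 and 44.4 in HL-60 and from 59.6, 50.5 and 54.9 to 34.8, 38.8 and 38.7 in MOLM-13, and from 93.1, 85.2 and 82.7 to 63.7, 59.4 and 59.1 in OCI-AML3 and from 40.3, 34.8 and 34.6 to 23.5, 24.1 and 28.7 in THP-1. No groups of ACACA overlapped. The log2 fold change of -1.40 in F-36P (SE 0.161, FDR = 5.14e-05) lay within the range of the other cell lines, whose lowest was -2.03 in KASUMI-1.

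FASN, fatty acid synthase, was repressed in 5 cell lines, from 1256 ± 115 to 282 ± 32.0 CPM in NB-4, and had a log2 fold change of -0.76 in F-36P (FDR = 0.00367). Its call in THP-1, at -1.03, was lost in 3 of 6 settings without 1 library, at -0.89 without etoposide replicate 3. FADS2, the first desaturase of polyunsaturated acids, was repressed in 4, from 1164 ± 81.6 to 264 ± 32.1 CPM in NB-4 and at -0.42 on the log2 scale in F-36P. Its neighbour FADS1 was repressed in MOLM-13 alone, at -1.19, with 0.67 in F-36P, and each of the pair shares a stretch with another gene on its own strand. ACLY, which makes cytosolic acetyl-CoA, was repressed in KASUMI-1 at -1.27 and had -0.10 in F-36P, a value above 0 with library size alone. ELOVL6, an elongase, was tested in 6 cell lines and repressed in 3, from 35.5 ± 0.753 to 12.3 ± 2.08 CPM in KASUMI-1, and MONO-MAC-6 had no read of it in 6 libraries. LPIN1, a phosphatidate phosphatase, was called nowhere, with its highest log2 fold change of 0.62 in F-36P.

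Among the 4 LXR genes, ABCG1, a sterol exporter, was tested in 3 cell lines, all at low levels. ABCG1 in CPM went from 0, 0 and 0 to 0.755, 1.01 and 0.531 in F-36P, from 0.711, 0.998 and 0.713 to 7.52, 6.05 and 5.43 in KASUMI-1 and from 0, 0.0515 and 0.0519 to 0.978, 1.28 and 0.582 in THP-1. The etoposide libraries were above the untreated ones in each. In F-36P and THP-1 the gene passed the filter on low counts only through its etoposide libraries, so that it had to differ there and nothing is read from those calls, of which the one in F-36P is among the 12 inductions. F-36P had 0 reads in 3 untreated libraries and 47 after etoposide. The ratio is 15.9 or more if 0 reads stand for up to 3 over the group and the 47 are taken as exact. It describes these reads only and is no test. In KASUMI-1 the log2 fold change was 2.96 (SE 0.219, FDR = 3.77e-06). Untested for want of reads, ABCG1 went from 0.0508, 0.0546 and 0 to 0.261, 0.278 and 0.275 in NB-4 and from 0.443, 0.293 and 0.335 to 0.421, 0.313 and 0.624 in OCI-AML3. It went from 0, 0.0516 and 0 to 0.0521, 0 and 0.0946 in HL-60 and from 0, 0 and 0 to 0.199, 0.0498 and 0 in NOMO-1, and from 0, 0 and 0 to 0.0553, 0 and 0.0512 in MOLM-13 and from 0, 0 and 0 to 0.0407, 0.0399 and 0 in MV-4-11, and MONO-MAC-6 was at 0 in all 6 libraries. Of these 7 cell lines, only NB-4 had its groups apart.

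NR1H3, the gene of LXR alpha, was called induced in KASUMI-1 alone. In CPM, NR1H3 went from 7.97, 8.93 and 8.0 to 16.5, 21.7 and 19.0 in KASUMI-1, from 9.08, 9.80 and 10.4 to 16.3, 16.8 and 16.2 in MONO-MAC-6 and from 6.73, 6.85 and 7.29 to 13.0, 12.0 and 11.8 in NOMO-1. It went from 14.2, 17.4 and 19.2 to 21.7, 25.5 and 24.4 in NB-4, from 23.7, 23.7 and 22.8 to 29.1, 33.8 and 35.4 in F-36P and from 34.2, 36.1 and 35 to 27.0, 27.7 and 27.5 in OCI-AML3. The level went from 25.9, 25.9 and 26.5 to 20.7, 25.4 and 20.0 in THP-1 and from 6.16, 8.0 and 6.52 to 6.45, 8.83 and 7.66 in HL-60, and from 2.99, 3.86 and 3.9 to 2.87, 3.77 and 4.92 in MOLM-13 and from 6.93, 6.78 and 8.03 to 7.74, 8.21 and 8.52 in MV-4-11. Its groups were apart in 7 cell lines, with the etoposide libraries above in KASUMI-1, MONO-MAC-6, NOMO-1, NB-4 and F-36P and below in OCI-AML3 and THP-1. NR1H3 had a log2 fold change of 1.20 in KASUMI-1 (FDR = 3.8e-05) and 0.49 in F-36P.

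MYLIP, a ubiquitin ligase of lipoprotein receptors and an LXR target, had a log2 fold change below 0 in all 10 cell lines and was called in none. In CPM, MYLIP went from 21.6, 21.6 and 21.3 to 12.3, 10.6 and 15.1 in F-36P, from 106, 112 and 109.8 to 61.2, 62.7 and 60.7 in MONO-MAC-6 and from 73.4, 71.9 and 73.7 to 48.9, 50.8 and 47.4 in MV-4-11. It went from 75.9, 79.9 and 80.1 to 63.3, 56.8 and 37.7 in HL-60, from 47.1, 40.8 and 57.5 to 38.0, 32.4 and 35.6 in NB-4 and from 82.4, 96.5 and 77.5 to 70.4, 67.0 and 66.1 in NOMO-1. The level went from 71.8, 88.7 and 74.9 to 65.8, 63.7 and 68.2 in OCI-AML3 and from 56.1, 54.1 and 51.7 to 55.3, 48.9 and 48.1 in KASUMI-1, and from 99.7, 113 and 122 to 86.3, 113 and 115 in MOLM-13 and from 20.8, 24.5 and 22.8 to 21.2, 18.4 and 20.1 in THP-1. The groups of MYLIP overlapped in KASUMI-1, MOLM-13 and THP-1. The log2 fold change was -0.76 in F-36P (FDR = 0.00138) and -0.087 in KASUMI-1, where it was above 0 with library size alone. ABCA1, the other exporter, was induced in MONO-MAC-6, from 7.80 ± 0.437 to 26.5 ± 1.09 CPM, and repressed in THP-1, from 35.7 ± 1.61 to 12.0 ± 1.69 CPM. KASUMI-1 had 0 untreated reads of ABCA1 and 30 after etoposide, a ratio of 9.79 or more on the same terms as for ABCG1, which was not tested.

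Set side by side, the 27 SREBP targets other than INSIG1 and the LXR genes parted most in KASUMI-1, with median log2 fold changes of -0.87 against 1.20. The medians were -0.96 against 0.75 in MONO-MAC-6, -1.19 against 0.34 in NB-4 and -0.71 against 0.69 in NOMO-1. They were closer in MOLM-13, at -0.74 against 0.11, in MV-4-11, at -0.50 against -0.14, and in THP-1, at -0.57 against -0.22. In OCI-AML3 the medians were -0.32 against -0.25 and in HL-60 -0.38 against -0.58, so both lists were below 0. In F-36P both were above 0, at 0.82 against 0.71, and the SREBP median there joins sterol enzymes at 1.08 and fatty acid genes at -0.26. Without ABCG1, the middle value of the other 3 LXR genes in F-36P was that of NR1H3, 0.49. With INSIG1 counted, the SREBP medians moved by at most 0.0563 on the log2 scale. The LXR medians rest on 3 or 4 genes, and no test was made of either list. They leave out SREBF1 and LPCAT3, which are also LXR targets. SREBF1 was below 0 in all 10 cell lines, and LPCAT3 was below 0 in 5 and above in 5.

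**Figure D3:**
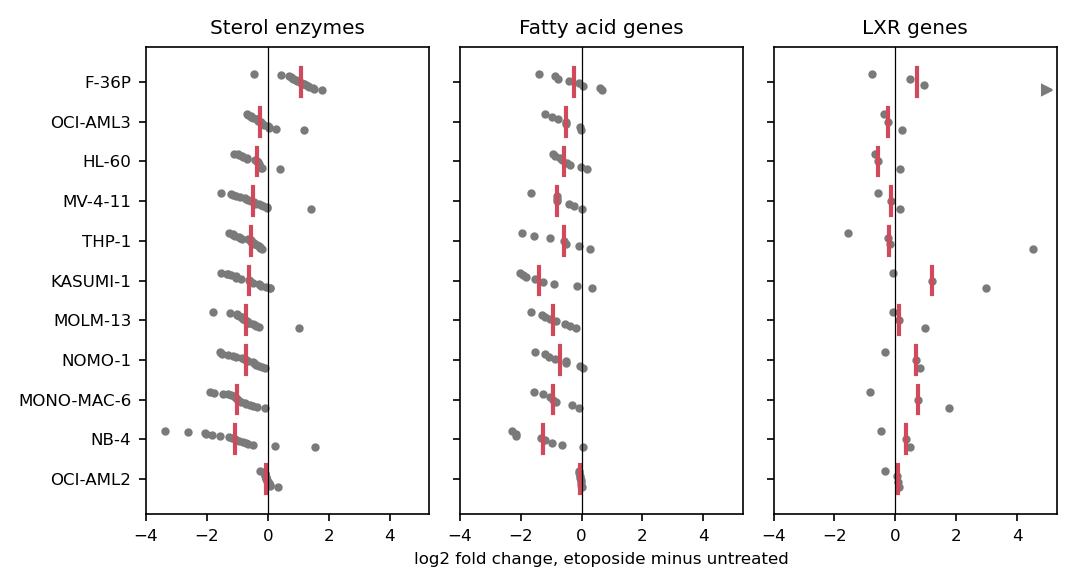
Log2 fold change of the genes tested (grey points) and their median (red bar) in each cell line for the 18 sterol enzymes, the 8 fatty acid genes and the 4 LXR genes; a triangle at the right edge marks ABCG1 in F-36P, beyond the axis. F-36P has 17 of its 18 sterol enzymes, all but PMVK, to the right of 0 and its fatty acid median to the left.

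The next comparison asked whether the response of F-36P differed from that of the other 9 cell lines, in 1 edgeR fit of 60 libraries. Of the 35 genes, 31 had more than 3 reads in every group and could be given a value, and 20 of them had a larger log2 fold change in F-36P by more than 1 at an FDR below 0.05, with 0 smaller. Over all 19974 genes tested, 8.53% were called larger and 2.84% smaller, with a median difference of 0.13; the list was chosen for such a difference in INSIG1, so nothing is read from these shares. At the FDR alone, 25 genes were larger and 3, SCAP, ACACA and MYLIP, were smaller, beside 15.9% and 17.6% of all genes. In 23 genes the F-36P value lay above the highest of the 9 others, and in 0 below the lowest. The share of all genes outside that range was not computed, so nothing is read from these counts.

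Called larger were 16 of 17 sterol enzymes with a value, all but PMVK, besides STARD4, INSIG2, SCD and FADS1. The largest tested difference was in HMGCS1, at 2.75 on the log2 scale (SE 0.215, FDR = 1.11e-15), followed by MSMO1 at 2.69 (SE 0.165, FDR = 1.39e-19); for INSIG1, which chose the list, it was 2.83. DHCR7 at 2.22 and LSS at 2.14 came next. The mean change of the 9 others was -1.47 for HMGCS1 and -1.16 for MSMO1. SCD differed by 1.60 and stayed near its untreated level in F-36P, at 0.039, while the others averaged -1.54. The fatty acid genes differed less, with 0.78 for FADS2, 0.48 for ACLY and 0.47 for FASN, while the difference was -0.44 for ACACA (SE 0.125, FDR = 0.00395). For MYLIP it was -0.37 (SE 0.14, FDR = 0.0356). SREBF1 differed by -0.043 (SE 0.163, FDR = 1) and NR1H3 by 0.16 (SE 0.121, FDR = 0.376), neither past the threshold. CYP51A1, ELOVL6, ABCA1 and ABCG1 could not be fitted, as 1 or more cell lines had at most 3 reads in a group. The SE and FDR of these differences rest on the spread between libraries within a group. They do not measure the spread among the 9 other cell lines, which for HMGCS1 ran from -3.39 to -0.47. F-36P is 1 cell line, the one with GATA1, KLF1 and EPOR all at high levels, and its cell type, medium and etoposide concentration cannot be told apart.

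**Figure D4:**
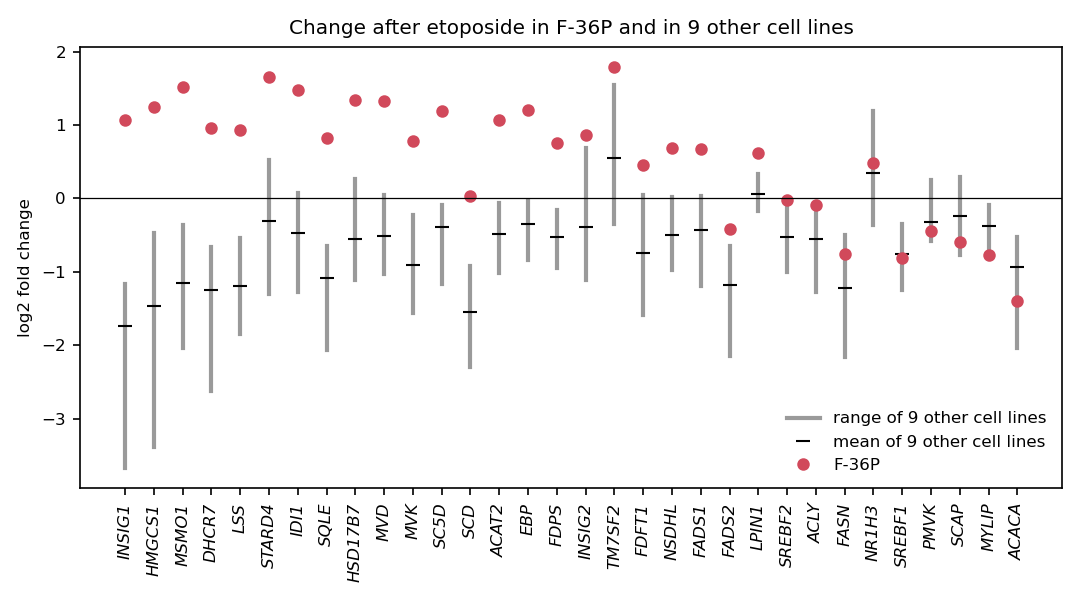
Log2 fold change in F-36P (red points) beside the range (grey bar) and mean (black tick) of the 9 other cell lines for the 32 genes with a value, ordered by the difference. From INSIG1 to FADS1 at the left the red points lie above the grey bars, and at the right ACACA, MYLIP, SCAP and SREBF1 lie inside them.

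With the cell line as the replicate, an exact two-sided sign-flip permutation test over the 10 log2 fold changes asked which genes had a mean change other than 0. Of the 31 genes tested in all 10 cell lines, 15 had a lower mean at an FDR below 0.05 and 0 a higher one, beside 25.7% and 17.6% of all 10588 genes tested. At an unadjusted p below 0.05, 2 genes, TM7SF2 and NR1H3, had a higher mean. The 7 genes below 0 in every cell line were SREBF1, SREBF2, ACLY, ACACA, FASN, FADS2 and MYLIP, each at a permutation p of 0.00195 (n = 10, exact sign-flip permutation test), the smallest that the flips allow (FDR = 0.00991). Of these, SREBF2 and ACLY were above 0 in F-36P and MYLIP in KASUMI-1 when scaled by library size alone. The mean log2 fold change was -1.17 ± 0.54 for FASN, -1.11 ± 0.55 for FADS2 and -0.76 ± 0.25 for SREBF1 (SD, n = 10 cell lines, exact permutation test). SCD, lower in 9 of 10, had -1.38 ± 0.63 (n = 10, exact permutation FDR = 0.0147). The sterol enzymes HMGCS1, MVK, PMVK, FDFT1, SQLE, LSS and DHCR7 also passed, while MSMO1, whose F-36P value was among the highest, did not, at -0.89 ± 0.97 (n = 10, exact permutation FDR = 0.0563). Without F-36P, 25 genes passed on the lower side. The share of all genes was not computed for that setting. The list was also chosen for a fall of INSIG1 in most cell lines, so nothing is read from that count.

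The untreated levels were compared over all 33 untreated libraries, scaled together by TMM, so that values differ somewhat from those scaled within a cell line. The fold changes of INSIG1 that chose the list use these same libraries. Its untreated level is thus not independent of that choice. Per kilobase of exon, SCD stood highest with a median of 206 CPM per kilobase over 11 cell lines, then ACLY with 106, FASN with 83.6 and FDPS with 75.5. ABCA1, at 0.785, CYP51A1, at 0.637, and ABCG1, at 0.00263, were at the bottom. The spread between cell lines was widest for NR1H3, 18.3-fold from OCI-AML2 to OCI-AML3, and for FADS1, 15.6-fold from F-36P to MONO-MAC-6, among genes above 0.5 CPM in every line. ACLY and IDI1 varied least, 1.72-fold and 1.91-fold. MONO-MAC-6 had the highest mean for 12 of the 36 genes, with 748 ± 42.4 CPM for FDPS and 194 ± 4.92 for STARD4 (SD, n = 3). OCI-AML2 had the lowest mean for 8 genes, HMGCS1, ACAT2, MVD, LSS and MSMO1 among them.

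MONO-MAC-6 and NB-4 had the most untreated INSIG1, with 574 ± 13.4 and 569 ± 88.3 CPM, and their libraries overlapped. HL-60 at 458 ± 50.6 and MOLM-13 at 447 ± 85.6 overlapped each other and NB-4. THP-1 at 277 ± 41.3 and MV-4-11 at 240.0 ± 15 overlapped as well. OCI-AML3 at 182 ± 15.8 and OCI-AML2 at 182 ± 4.99 were level, and KASUMI-1 at 152 ± 9.08 came below them. F-36P at 113 ± 8.25 and NOMO-1 at 106 ± 14.0 were the lowest and overlapped. NOMO-1, one of the lines with least INSIG1, had the most HMGCS1, 963 ± 135 CPM.

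Against the mean of the other 10 cell lines, untreated F-36P differed by more than 2-fold in 8 of the 32 genes with a value (edgeR, FDR below 0.05), with 2 higher and 6 lower, beside 21.1% and 14.1% of all 18130 genes tested. Lower were PMVK, at -2.58 on the log2 scale (SE 0.108, FDR = 2.68e-21), FADS1 at -2.29, INSIG2 at -1.87, MYLIP at -1.53, INSIG1 at -1.28 and HMGCS1 at -1.22. INSIG1, which chose the list, is counted among the 6 but is described only, and nothing is read from its call. For PMVK, FADS1, INSIG2 and MYLIP, F-36P was the lowest of the 11 cell lines, with 6.62 ± 0.778, 39.9 ± 4.46, 5.53 ± 0.99 and 20.3 ± 0.956 CPM. Higher were NR1H3 at 1.37 and FADS2 at 1.17. The SE and FDR here rest on the spread between libraries of a cell line, not on that between cell lines. FADS2 and FADS1 lie side by side on chromosome 11, and F-36P was second highest for the one, at 879 ± 69.1 CPM, and lowest for the other. The sterol enzymes other than PMVK and HMGCS1 were not called, with values between -0.64 for TM7SF2 and 0.91 for MVD. SREBF2 was at -0.012 (SE 0.0539, FDR = 0.924) and SCAP at -0.002 (SE 0.0619, FDR = 1).

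**Figure D5:**
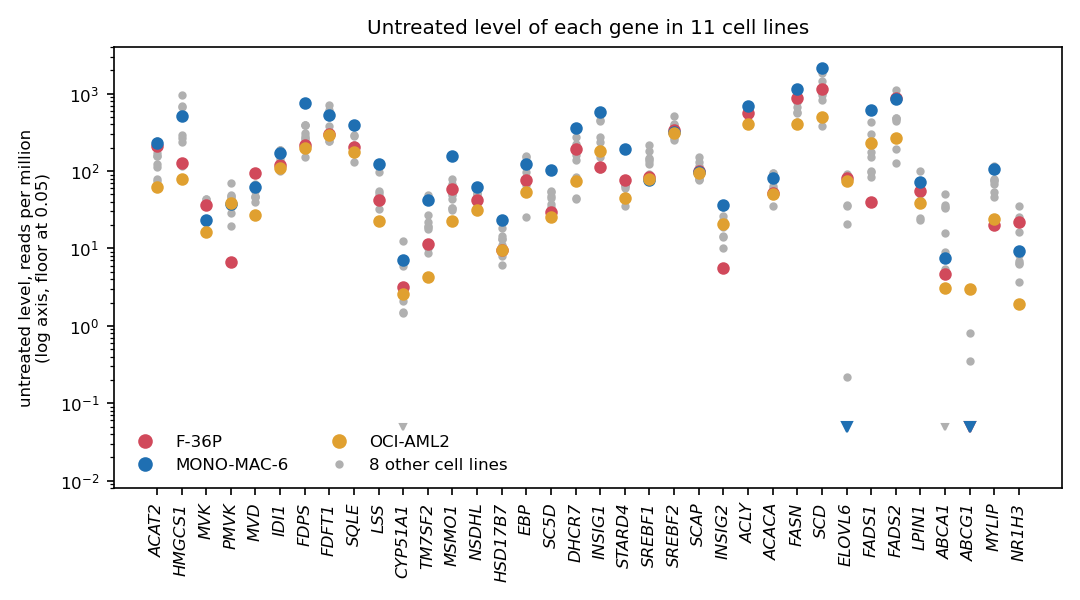
Mean untreated level of each gene in CPM (log axis) in 11 cell lines, with F-36P in red, MONO-MAC-6 in blue and OCI-AML2 in yellow; triangles mark lines below the floor of 0.05. MONO-MAC-6 tops 12 genes, and F-36P is lowest for PMVK, INSIG2, FADS1 and MYLIP.

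The genes whose log2 fold changes over 10 cell lines ran most like those of INSIG1 were SC5D, with a Pearson r of 0.955 (0.896 without F-36P), STARD4, with 0.943 (0.862 without F-36P), and HMGCS1, with 0.941 (0.87 without F-36P). IDI1 followed with 0.937 (0.854 without F-36P) and DHCR7 with 0.931 (0.835 without F-36P). The least alike was PMVK, with -0.643 (-0.795 without F-36P): NB-4, where INSIG1 had its lowest fold change, was the one line with PMVK above 0. These are descriptions over 10 lines, each point sharing its libraries and scaling, and F-36P lies at one end of most of them.

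Of 19 further genes of the pathway, listed in the same way, the calls were 0 repressed and 3 induced in F-36P, 1 and 0 in NB-4, 2 and 0 in MOLM-13, and at most 1 in each of the other 7. These stand beside 6.67% repressed and 24.3% induced of all genes in F-36P, and beside 4.82% repressed in NB-4 and 3.37% in MOLM-13. The 3 induced in F-36P were the lysosomal cholesterol carriers NPC1, at 1.48 on the log2 scale, and NPC2, at 1.24, and RXRA, the partner receptor of LXR, at 1.58. Of these genes, 4 (TMEM97, NPC1, NPC2 and RXRA) had a larger log2 fold change in F-36P than the mean of the other 9 by over 1, and 0 a smaller one, beside 8.53% and 2.84% of all genes. TMEM97, a sterol-regulated membrane protein, differed by 1.47. LPCAT3, an acyltransferase and LXR target, had -0.28 in F-36P.

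In OCI-AML2, whose etoposide libraries the study set aside, no gene of the list passed the test. INSIG1 was 177, 188 and 183 CPM untreated and 189, 194 and 186 CPM after etoposide, and SCD was 508, 506 and 504 and then 496, 503 and 494 CPM. The etoposide libraries of INSIG1 overlapped the untreated ones, and those of SCD lay just below them. None of the 35 genes was called, by edgeR's quasi-likelihood or exact test or by DESeq2, and 1 of 35 had an unadjusted p below 0.05 in the first, beside 3.35% of all genes. Over all genes 3 had an FDR below 0.05 and 0 were called. The median log2 fold change of the 35 genes was -0.036, with values from -0.34 to 0.33.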

How the data were processed

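The authors deposited read counts per gene for 66 libraries, made per the labels from stranded mRNA libraries with STAR 2.5.3a on GRCh38.p7 after FastQC 0.11.5. Each file holds 1 count per gene, and which STAR column was kept is not given in the sources used here. Counting without strand gives no reads to a gene that an opposite-strand exon covers in full, and 470 of 716 such genes had reads. Of 58037 identifiers, 45 second copies of genes shared by X and Y were left out, and 56948 of the other 57992 matched a symbol and position in GENCODE.

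The genes and lists were chosen with earlier results of these data known. Within each cell line, 3 etoposide and 3 untreated libraries were compared with the quasi-likelihood test of edgeR 4.0.16 in R 4.3.3 (TMM, and filterByExpr with min.count 10 and min.total.count 15). P-values were adjusted by Benjamini-Hochberg over all genes tested (FDR), and a call needed an FDR below 0.05 together with more than a 2-fold change. The F-36P response was set against the mean of 9 cell lines in 1 fit of 60 libraries, with a minimum difference of 1 on the log2 scale, and untreated F-36P against the mean of 10 in a fit of 33. The mean over cell lines was tested by all sign flips of the 10 values. DESeq2 1.42.0, the edgeR exact test, other scalings, filters and left-out libraries were alternatives. All steps across genes were tested on simulated data. The 10-base sterol element is named, not spelled out.

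All 36 genes are accounted for. Values of every library are given for INSIG1, for the 3 genes repressed and the 3 induced in the most cell lines and for the 2 largest F-36P differences in each direction. Deviations of same-numbered untreated and etoposide libraries correlated above 0.1 for every number in NB-4 (lowest 0.247), MOLM-13 (0.227), OCI-AML2 (0.197) and MONO-MAC-6 (0.105). The numbers may thus pair the libraries there, which the labels do not say. The limit of 0.1 was not set against chance, and the lowest correlation in OCI-AML3 was -0.685, so that pairing is not settled. No pair of libraries agreed within sampling noise (lowest chi-square 2.05 per degree of freedom). SREBF1 was added to the genes given per library, for F-36P, THP-1 and NB-4 alone, and DHCR7, SQLE and others are given as means with SD. Results of 3 further genes among the markers and the wider pathway are not reported here.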

Additional observations from a re-analysis of the deposited data

Results flagged for a closer look

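Over the log2 fold changes of 10 cell lines, the cell line at one end was checked for a gap to its neighbour that was, as a share of the whole range, above Dixon's 95% critical value, and 11 of 32 genes had one. Chance alone gives about 1 in 20 for independent normal values, and the share of all genes with such a gap was not computed. The list was also drawn up with the pattern of INSIG1 known, so that nothing is read from the number of genes. F-36P was the cell line at the top for INSIG1 (1.07), MSMO1 (1.51), IDI1 (1.47), MVD (1.32), EBP (1.20), SC5D (1.19), ACAT2 (1.06), LSS (0.94), SQLE (0.82) and FDPS (0.75). INSIG1 chose the list for this pattern, and the genes share libraries and scaling, so that the 10 are not separate observations. NB-4 was at the top for PMVK (0.25), the one gene with another cell line apart.

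In the test of F-36P against the mean of the other 9 cell lines, the mevalonate genes with a larger log2 fold change in F-36P were HMGCS1 (a difference of 2.75), IDI1 (1.97), MVD (1.85), MVK (1.70), ACAT2 (1.57), FDPS (1.30) and FDFT1 (1.21). After squalene they were MSMO1 (2.69), DHCR7 (2.22), LSS (2.14), SQLE (1.93), HSD17B7 (1.92), SC5D (1.61), EBP (1.56), TM7SF2 (1.26) and NSDHL (1.20). STARD4 (1.99), SCD (1.60), INSIG2 (1.28) and FADS1 (1.12) also differed. TM7SF2 is unlike the others in that it was called induced in 4 of the 9 cell lines as well. FADS1 and INSIG2 are also genes whose untreated level was lowest in F-36P.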

How the results depend on the processing

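Without a minimum fold change, 220 tests in 10 cell lines called a gene of the list repressed and 43 induced, in place of 75 and 20, and in F-36P 8 were repressed and 24 induced, in place of 1 and 12. Without F-36P, a setting chosen after seeing the data, 8 were induced. In F-36P, 1 to 2 genes were repressed when 1 library was left out, with 2 without untreated replicate 1. Over cell lines, 25 genes were lower on average without F-36P, in place of 15, with no share of all genes computed for that setting. By construction these settings drop a threshold or a cell line. Under the other settings the totals over 10 cell lines and the inductions and larger differences of F-36P stayed within 1.5 times, with 59 repressed and 26 induced in all when scaled by library size alone. In F-36P that scaling also put log2 fold changes above the fold limit for MVK (1.03), SQLE (1.07), INSIG2 (1.11), LSS (1.18), ABCA1 (1.18) and DHCR7 (1.20). The number of inductions in F-36P thus depends on the scaling. Within a cell line, leaving out 1 library gave 0 to 6 repressed genes in HL-60 (1 with all libraries), 5 to 9 in MOLM-13 (8, with 0 to 2 induced in place of 1), lowest without untreated replicate 3, and 1 to 2 in OCI-AML3 (1), with 2 without untreated replicate 1 or etoposide replicate 3. The 95 calls within a cell line kept direction and threshold in 1263 of 1325 recomputations, lost the threshold in 62 and reversed in 0. The 20 differences of F-36P held in 260 of 260, and its untreated differences in 56 of 56. The 15 lower means over cell lines held in 56 of 60. All 4 losses came when scaled by library size alone, where 11 of the 15 passed. With the replicate number as a block, 76 were repressed and 20 induced (12 induced in F-36P, 20 larger differences), with all 95 calls kept and 1 repression gained. In 7 cell lines the numbers did not pass the check for pairs. Depth limits ABCG1, ABCA1, ELOVL6 and CYP51A1, which have few or no reads in some cell lines.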
